A study of Mus musculus with 8 samples.

Results

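The IL-6 family of cytokines was described here by 10 genes, which were 5 ligands (Il6, Lif, Osm, Il11 and Clcf1), 3 receptor chains (Il6ra, Il6st and Osmr), the transcription factor Stat3 and its feedback inhibitor Socs3. The 10 genes were taken by symbol from the 24421 genes of the deposited count table, and all 10 were found there. They were selected with the values of photoconverted and control tumors known, so their differences between those groups are given as a description and carry no test. The samples were 8 whole tumors, 4 photoconverted and 4 control, each grown from 250000 injected MC38 cells, a mouse colon adenocarcinoma line, in 9-week-old female B6 Kaede mice, 4 mice per group. Kaede is a fluorescent protein that violet light switches from green to red, and the mice of both groups carried it. Photoconverted tumors, about 5 mm wide, received violet light of 405 nm over 3 min at day 10 through the skin, and control tumors had no exposure. Tumors of both groups were placed in RNAlater 5 h after that exposure. The design text names the comparison as photoconversion against no intervention, so light and handling cannot be told apart.

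The IL-6 family ligands named above signal through receptor complexes that contain gp130, the product of Il6st. IL-6 first binds its own receptor, the product of Il6ra, whereas oncostatin M, the product of Osm, brings gp130 together with OSMR, and LIF brings it together with LIFR. The complexes activate Janus kinases, which phosphorylate STAT3, and STAT3 then enters the nucleus and switches on genes that include Socs3. SOCS3 binds gp130 and shuts the kinases down, which closes a feedback loop. In wounded or inflamed tissue, fibroblasts, macrophages, neutrophils and epithelial cells can all make members of the family, and IL-6 drives the acute-phase response of the liver.

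The promoters of Il6 and Socs3 are shown because these genes are the best-known inflammatory ligand and the feedback target of the loop. Sequences are those of RefSeq on build GRCm38.p6, the build that the submitters' processing notes call mm10, and are written along the strand of the gene. In the 250 bases before the Il6 start, chr5:30012864-30013113 on the plus strand, capitals mark a match to the kappa B letters (GGG, any 3 bases, then TTCC) that begins at position -44, where -1 is the last base before the start.
Il6: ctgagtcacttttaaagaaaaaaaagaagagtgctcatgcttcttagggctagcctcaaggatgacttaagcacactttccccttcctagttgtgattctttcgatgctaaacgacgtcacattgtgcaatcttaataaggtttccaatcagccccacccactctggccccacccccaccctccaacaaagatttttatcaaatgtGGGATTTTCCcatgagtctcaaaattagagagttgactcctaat
For Socs3, 165 bases are shown, chr11:117969452-117969616 on the minus strand, and capitals mark a match to the STAT letters TTCNNNGAA that begins at position -154. The bases nearer to the start were left out because they lie in an annotated exon. The bases shown lie before the RefSeq start of Socs3 but inside the longer span of the gene given below, which comes from another annotation, GENCODE.
Socs3: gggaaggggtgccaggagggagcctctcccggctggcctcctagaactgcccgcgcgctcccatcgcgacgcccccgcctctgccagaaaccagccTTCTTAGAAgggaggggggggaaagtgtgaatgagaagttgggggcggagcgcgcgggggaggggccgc

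A promoter sequence was given for 8 of the 10 genes, that is, for all but Osm and Clcf1. On either strand of the 250 bases before the start, the STAT letters were found in 1 of the 8, Socs3, and in 7.02% of 32851 mouse promoters. The kappa B letters were found in Il6 alone of the 8, and in 4.65% of all promoters. AP-1 letters, TGANTCA, were found in 3 of the 8 (Il6, Lif and Il11) and in 6.75% of all promoters, and the Il11 match lay at only 1 of its annotated starts. The heat shock element letters GAANNTTC were found in Il6st, at position -228, and in 6.69% of all promoters. These matches describe letters in a window and do not show that a factor was bound.

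Total counts per tumor lay between 12576615 and 35844417. The share of counts on Rn45s, the ribosomal RNA precursor, was under 10% in 5 libraries (photoconverted tumors 1 to 3 and control tumors 1 and 3) and between 21.9% and 35.7% in the other 3 (photoconverted tumor 4 and control tumors 2 and 4). Those 3 libraries therefore stand apart, and the differences of the 10 genes are also given for the 5 libraries with the low share. Levels are given as CPM, which are read counts scaled to a common library size with TMM normalization. Of 7 markers of colon epithelium, 3 passed the filter on low counts, Cdx2 had 0 counts in every tumor, and the 7 together summed to 2.83 to 6.41 CPM. Markers of the tissue that MC38 came from were thus at or near 0. Because RNA came from whole tumors, fewer cells of a type and less RNA per cell cannot be told apart in any value given here.

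Il6 had the widest difference of the 10 genes. The gene encodes interleukin-6 and lies, on GRCm38 as all positions here, at chr5:30013114-30019981 on the plus strand. In photoconverted tumors 1, 2, 3 and 4 it stood at 5.05, 4.83, 7.76 and 0.342 CPM. Control tumors 1, 2, 3 and 4 had 0.885, 0.214, 0.818 and 0.610 CPM. Photoconverted tumors 1 to 3 were thus above every control tumor, while photoconverted tumor 4 was below 3 of the 4 control tumors. The means were 4.50 ± 3.07 CPM with photoconversion and 0.632 ± 0.302 CPM without it (SD, n = 4 each), a 7.12-fold ratio. The log2 fold change fitted by edgeR was 2.73 with a standard error of 0.73. Counts behind these values were small in the low tumors, with 5 reads in photoconverted tumor 4 and 2 reads in control tumor 2, against 202 reads in photoconverted tumor 1.

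Osm, which encodes oncostatin M, a cytokine made mainly by myeloid and T cells, had the same 3 tumors on top. The gene lies at chr11:4236420-4241026 on the plus strand. Its levels were 11.96, 9.66, 16.9 and 6.08 CPM in photoconverted tumors 1 to 4. In control tumors 1 to 4 they were 5.68, 4.92, 4.55 and 7.45 CPM. Photoconverted tumor 4 fell inside the control range, and the other 3 lay above it. The mean was 11.2 ± 4.53 CPM against 5.65 ± 1.29 CPM in control tumors (SD, n = 4 each), with a log2 fold change of 0.98 (SE 0.31).

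Lif encodes leukemia inhibitory factor, which acts through LIFR and gp130, and lies at chr11:4257557-4272514 on the plus strand. It had 43.4, 35.4, 61.7 and 29.5 CPM in the photoconverted tumors and 19.5, 36.7, 19.3 and 33.5 CPM in the control tumors, in the order of their numbers. Only photoconverted tumors 1 and 3 were above every control tumor, and control tumors 2 and 4, both with a high Rn45s share, were well above control tumors 1 and 3. Group means were 42.5 ± 14.0 and 27.2 ± 9.15 CPM (SD, n = 4 each), and the log2 fold change was 0.65 (SE 0.29). Lif and Osm are neighbours on chromosome 11. Osm ends at base 4241026 and Lif starts at base 4257557, which leaves 16530 bases with no other annotated gene between them.

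Il11 encodes interleukin-11, a ligand made largely by stromal and epithelial cells, and lies at chr7:4772373-4782859 on the minus strand. It was the only ligand whose lowest photoconverted value was not in tumor 4, with 2.68, 3.35, 2.40 and 2.60 CPM. The control tumors had 1.29, 0.856, 1.14 and 2.56 CPM, so control tumor 4 reached the photoconverted range and the other 3 stayed below it. Mean levels were 2.76 ± 0.411 and 1.46 ± 0.757 CPM (SD, n = 4 each), and the log2 fold change was 0.91 (SE 0.34).

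Clcf1 encodes cardiotrophin-like cytokine factor 1, a ligand that signals through the CNTF receptor, and lies at chr19:4214238-4223490 on the plus strand. Photoconverted tumors had 44.4, 43.6, 46.6 and 36.0 CPM, and control tumors had 27.4, 49.99, 33.4 and 41.1 CPM. The groups overlapped fully, with the highest value in control tumor 2. Its log2 fold change of 0.17 was smaller than its standard error of 0.19. In GENCODE an exon of Clcf1 overlaps another annotated gene on the same strand. Its counts are less certain if the annotation used in counting also held that gene.

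**Figure D1:**
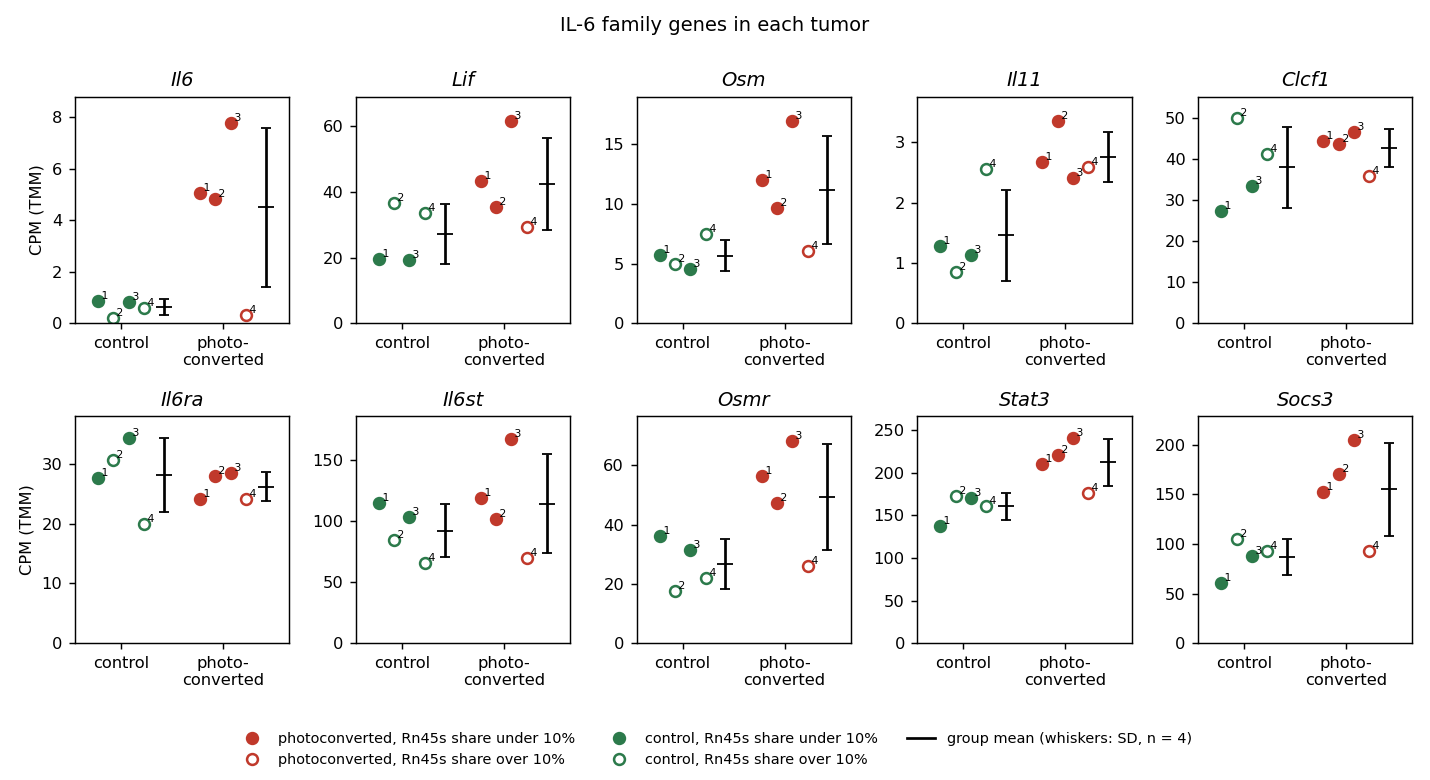
Level of each of the 10 genes in each tumor, in CPM on linear axes that start at 0. Points are tumors with their replicate number, open points are the 3 libraries with an Rn45s share over 10%, and the whiskers are mean ± SD (n = 4). Photoconverted tumors 1 to 3 lie above all control tumors for Il6, Osm, Osmr, Stat3 and Socs3, and photoconverted tumor 4 lies above them for Stat3 alone of these 5.

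Among the receptor chains, Osmr was the chain with the widest difference. It encodes the receptor subunit for oncostatin M that pairs with gp130, and lies at chr15:6813577-6874969 on the minus strand. Its levels in photoconverted tumors were 56.3, 47.2, 68.2 and 25.9 CPM. Control tumors had 36.1, 17.6, 31.5 and 21.9 CPM. Photoconverted tumors 1 to 3 were above every control, and photoconverted tumor 4 lay between control tumors 4 and 3. Means of 49.4 ± 17.9 and 26.8 ± 8.53 CPM (SD, n = 4 each) gave a log2 fold change of 0.88 (SE 0.31).

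Il6st encodes gp130 itself, the chain that the receptor complexes of the ligands described above share, and lies at chr13:112464070-112510086 on the plus strand. It had 118.4, 101.4, 166.7 and 69.8 CPM in photoconverted tumors and 114.9, 84.7, 103.4 and 65.4 CPM in control tumors. Only photoconverted tumors 1 and 3 exceeded every control tumor, the former by a small margin. The log2 fold change was 0.31 (SE 0.27). The 3 libraries with a high Rn45s share had the 3 lowest values of Il6st, and the same was true of Il6 and Osmr, in both groups. The share of all genes with this order was not computed.

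Il6ra, the binding chain for IL-6, was the only one of the 10 genes with a lower mean in photoconverted tumors. The gene lies at chr3:89864059-89913196 on the minus strand. It had 24.2, 28.0, 28.4 and 24.1 CPM in these and 27.7, 30.6, 34.4 and 19.9 CPM in the control tumors. The photoconverted values all lay inside the control range. Its log2 fold change was -0.10 (SE 0.17), which turned to 0.0086 when control tumor 3 was left out. An exon of Il6ra overlaps an annotated gene on the opposite strand, and whether strand was used in counting is not given in the sources used here.

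Within each tumor, Osmr and Il6st can be compared per base of exon, since a ratio of genes in the same library does not depend on its depth. The ratio of Osmr to Il6st was 0.436, 0.426, 0.375 and 0.340 in photoconverted tumors. In control tumors it was 0.288, 0.190, 0.279 and 0.306. The groups did not overlap, with means of 0.394 ± 0.0451 and 0.266 ± 0.0518 (SD, n = 4 each), and photoconverted tumor 4 was the closest to the control range. These ratios were formed with the levels known and carry no test. The share of gene pairs whose ratios do not overlap was not computed, and the groups did overlap for Osmr alone. For Il6ra to Il6st, the ratio was 0.320 ± 0.0995 in photoconverted and 0.398 ± 0.0663 in control tumors, with overlap.

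**Figure D2:**
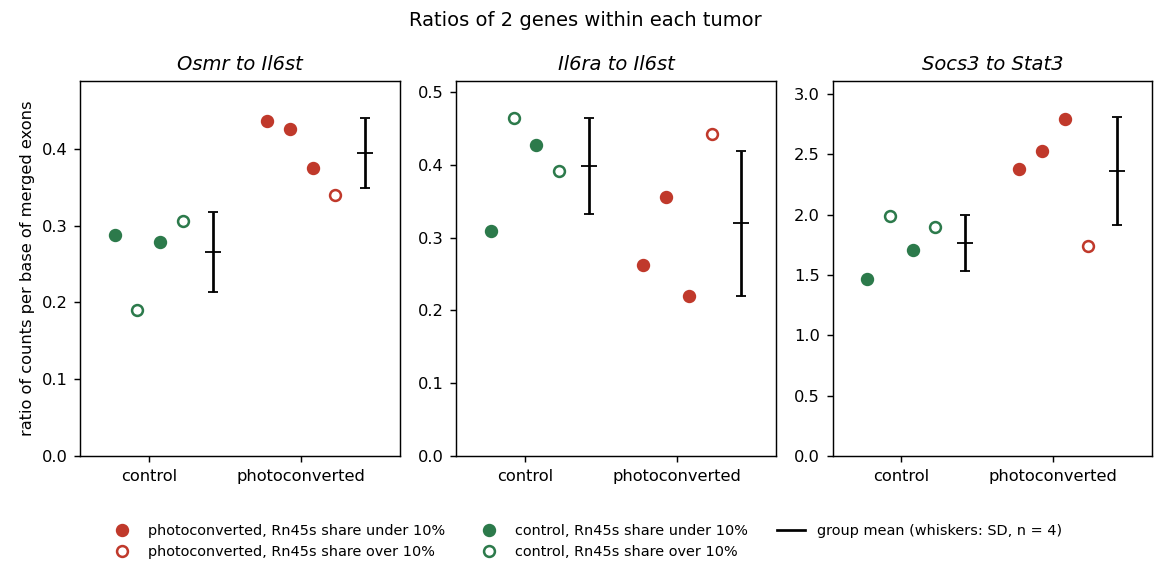
Ratio of counts per base of merged exons between 2 genes of the same tumor, on linear axes that start at 0, with mean ± SD (n = 4). The ratio of Osmr to Il6st is between 0.340 and 0.436 in photoconverted tumors and between 0.190 and 0.306 in control tumors, while the groups overlap for Il6ra to Il6st and for Socs3 to Stat3.

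Stat3 and Socs3 are the shared effector and the feedback arm of the pathway. Stat3 lies at chr11:100885098-100939540 on the minus strand. It was measured at 210.8, 221.5, 241.3 and 176.1 CPM in photoconverted tumors. In control tumors it was measured at 137.4, 173.3, 170.2 and 161.1 CPM. All photoconverted tumors were above all control tumors, although tumor 4 exceeded control tumor 2 by little. The means were 212.4 ± 27.3 and 160.5 ± 16.3 CPM (SD, n = 4 each), a 1.32-fold ratio, and the log2 fold change was 0.40 (SE 0.13). Exons of Stat3 and of Stat5a overlap on opposite strands, so part of the Stat3 counts may come from that neighbour if counting ignored strand.

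Socs3 lies at chr11:117966079-117970047 on the minus strand, and its level is widely used as a readout of STAT3 activity. It had 152.3, 170.1, 204.5 and 93.1 CPM in photoconverted tumors. Its control values were 61.2, 104.7, 88.0 and 92.7 CPM. Photoconverted tumors 1 to 3 were above the highest control, and photoconverted tumor 4 was level with control tumor 4. Mean levels were 155.0 ± 46.6 and 86.6 ± 18.4 CPM (SD, n = 4 each), a 1.79-fold ratio with a log2 fold change of 0.84 (SE 0.25). The ratio of Socs3 to Stat3 per base of exon was 2.36 ± 0.447 in photoconverted and 1.76 ± 0.232 in control tumors, and its ranges overlapped because photoconverted tumor 4, at 1.74, was below control tumors 2 and 4.

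Across the set, 9 of the 10 genes had a higher fitted level after photoconversion, beside 6764 of all 14468 genes tested. The median log2 fold change was 0.75 for the 10 genes, beside -0.014 for all genes tested. Stat3 was the 1 gene of 10 whose groups did not overlap with photoconverted tumors higher, which was the case for 0.684% of all genes. The opposite order, control tumors higher, was seen for 0 of the 10 and for 0.643% of all genes. With edgeR's quasi-likelihood test and Benjamini-Hochberg adjustment, 0.0% of all genes (0 of 14468) had an adjusted p under 0.05, whereas 322 genes had an unadjusted p under 0.05 and DESeq2's Wald test called 24 genes after adjustment. As the 10 genes were chosen on this contrast, nothing is read from these shares.

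Photoconverted tumor 4 was the lowest of its group for 9 of the 10 genes, all but Il11. Photoconverted tumor 3 was the highest of its group for 9 and the highest of all 8 tumors for 7. The share of all genes with these ranks was not computed, so nothing particular to the 10 genes is read from them. Without photoconverted tumor 4, the groups did not overlap for 5 genes (Il6, Osm, Osmr, Stat3 and Socs3), beside 3.83% of all genes. Without control tumor 4 this held for 3 genes (Osm, Il11 and Stat3), beside 2.4% of all genes. It held for Il11 and Stat3 without photoconverted tumor 3, beside 1.27%, and for Stat3 and Socs3 without control tumor 2, beside 1.49%.

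When only the 5 libraries with the low Rn45s share were compared, 3 photoconverted against 2 control, 8 genes did not overlap (all but Il6ra and Il6st), beside 14.0% of all genes. In these libraries the mean of Il6 was 5.88 against 0.851 CPM, a 6.91-fold ratio. Osm and Lif had 2.51-fold and 2.41-fold ratios there, Socs3 had a 2.36-fold ratio and Stat3 a 1.46-fold ratio. The ratios were 2.32 for Il11, 1.69 for Osmr, 1.48 for Clcf1, 1.18 for Il6st and 0.8665 for Il6ra. Among the 3 libraries with the high share, photoconverted tumor 4 had 0.8289 times the mean Il6 level of control tumors 2 and 4, 0.983 times their Osm, 0.8396 times their Lif, 0.943 times their Socs3 and 1.05 times their Stat3. It had 1.52 times their Il11 and 1.315 times their Osmr, and 0.789 to 0.952 times their Clcf1, Il6st and Il6ra. Of the 9 genes with a higher mean in photoconverted tumors, 3 (Il11, Osmr and Stat3) were thus also higher in this single high-share comparison, which has 1 photoconverted tumor and no replicate. Whether the Rn45s share has a part in this was not tested.

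**Figure D3:**
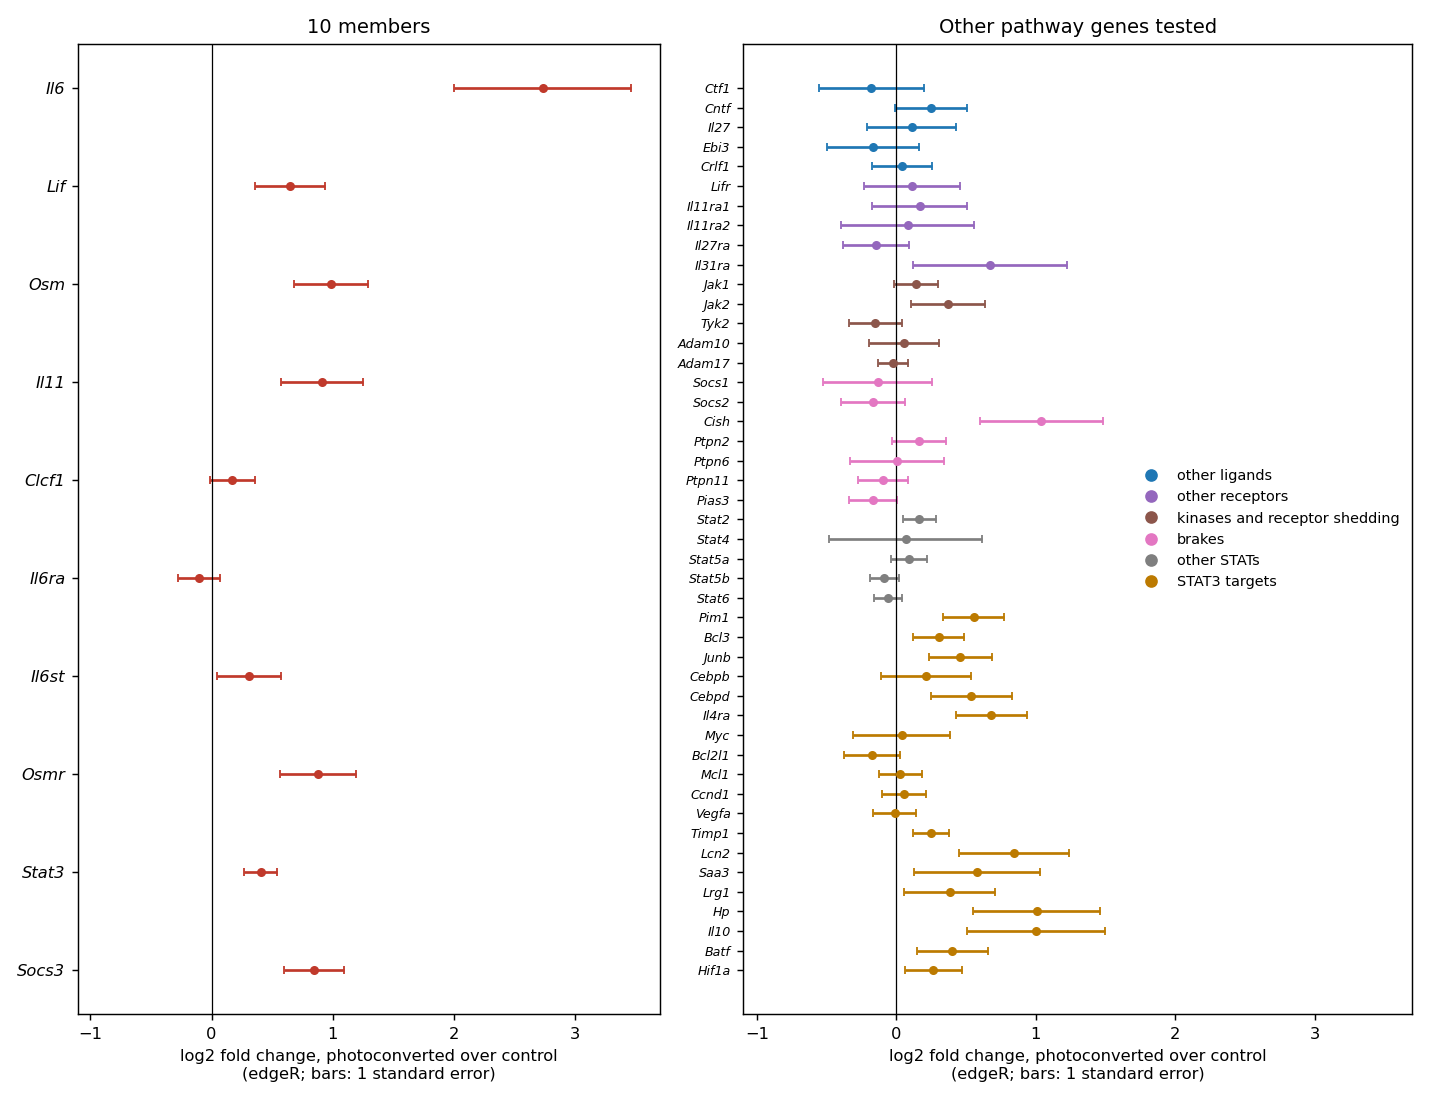
Log2 fold change of photoconverted over control tumors for the 10 genes (left) and for other genes of the pathway by role (right), with bars of 1 standard error, from edgeR. Il6 stands farthest to the right at 2.73, and on the right the targets of STAT3 lie mostly to the right of 0, with none past the adjusted threshold.

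Levels between genes were compared as CPM per kilobase of merged exons, with exon lengths from GENCODE, which may differ from the annotation used in counting. In control tumors Socs3 was the most abundant, with 29.97 ± 6.36, followed by Stat3 with 16.9 ± 1.71. Next came Clcf1 (9.98 ± 2.57), Il6st (8.30 ± 1.96) and Lif (6.26 ± 2.10), whose ranges overlapped from each gene to the next. Il6ra (3.26 ± 0.712), Osm (2.49 ± 0.566) and Osmr (2.21 ± 0.705) formed a further overlapping run. Il11 (0.702 ± 0.364) and then Il6 (0.260 ± 0.124) were lowest, each separated from the gene above it (SD, n = 4 for each). The most abundant transcripts of the family in untreated tumors were thus those of the feedback gene and the transcription factor, and the least abundant ligand was Il6 itself.

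In photoconverted tumors Socs3 (53.6 ± 16.1), Stat3 (22.3 ± 2.87) and Clcf1 (11.2 ± 1.22) were again the first 3 in that order. From Clcf1 downward, each gene overlapped the next. Il6 reached 1.85 ± 1.27 CPM per kilobase and ranked above Il11 (1.32 ± 0.197), although photoconverted tumor 4 had only 0.141. Osm (4.91 ± 2.00) and Osmr (4.08 ± 1.48) both ranked above Il6ra (3.03 ± 0.276), whereas Il6ra ranked above both in control tumors (SD, n = 4 for each). The ranges of Osm, Osmr and Il6ra overlapped from each to the next in both groups. The ranges of Il6 and Il11 overlapped in photoconverted tumors and not in control tumors.

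**Figure D4:**
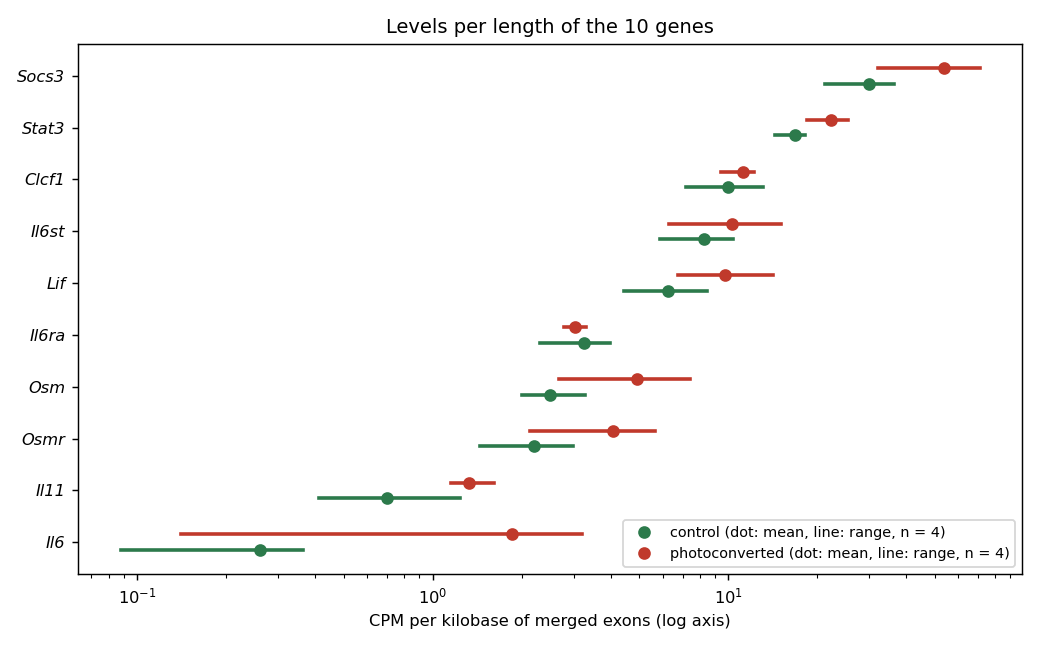
Level of the 10 genes as CPM per kilobase of merged exons on a log axis, in control and photoconverted tumors (dot, mean, and line, range, n = 4). Socs3 and Stat3 are highest in both groups, Il6 is lowest in control tumors at 0.260, and the Il6 line of photoconverted tumors spans 0.141 to 3.20.

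Beyond the 10 genes, 50 other genes of the pathway were examined by role, of which 47 passed the filter on low counts. The ligand genes Ctf2 and Il31 and the receptor gene Cntfr, which encodes the binding chain for CLCF1 and CNTF, did not pass. The 50 genes were also chosen with earlier results of these data known, so their counts and p-values are given as a description. By edgeR, 0 of the 47 genes passed the adjusted threshold (adjusted p = 0.999 for each gene named here), and 3 had an unadjusted p under 0.05, all with higher values in photoconverted tumors, beside 2.23% of all genes. Those 3 were Il4ra, Pim1 and Cish. In the fit with a replicate block, the unadjusted count was 13, again all higher, beside 869 of all 14468 genes, and the smallest adjusted p was 0.415. In the fit of the 5 low-share libraries it was 12, of which 11 were higher and 1 lower, beside 1604 of 15252 genes. In the main edgeR fit, 34 of the 47 genes had a positive log2 fold change, beside 6764 of all 14468 genes tested. The median of the 47 was 0.11.

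Targets of STAT3 made up 17 of the 34 positive values. Of 19 such genes, 17 had a positive log2 fold change, beside 6764 of all 14468 genes tested, and their median was 0.38. Il4ra, which encodes the interleukin-4 receptor chain, had 192.2 against 120.1 CPM and a log2 fold change of 0.68 (SE 0.25, unadjusted p = 0.0241, edgeR). For Pim1, a survival kinase, the means were 52.8 and 36.1 CPM, with a log2 fold change of 0.55 (SE 0.22, unadjusted p = 0.0321, edgeR). Hp, the acute-phase protein haptoglobin, had 41.7 and 20.7 CPM and did not pass even without adjustment (log2 fold change 1.01, SE 0.45, unadjusted p = 0.0534, edgeR). Several of these genes, Junb and Cebpb among them, are switched on by other pathways as well, and Hp and Lcn2 are also made by neutrophils.

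The other roles showed smaller differences. Among 7 brakes the median was -0.10, and Cish, a SOCS family gene best known as a target of STAT5, had 6.43 against 3.11 CPM (log2 fold change 1.04, SE 0.44, unadjusted p = 0.0429, edgeR). The other brakes nearest to the threshold were Pias3 (-0.17, unadjusted p = 0.357) and Ptpn2 (0.16, unadjusted p = 0.424, edgeR). Of the kinases, Jak2 had a log2 fold change of 0.37 (unadjusted p = 0.193), Jak1 of 0.14 (unadjusted p = 0.408) and Tyk2 of -0.15 (unadjusted p = 0.446, edgeR). Of the other STAT genes, Stat2 had a log2 fold change of 0.16 (unadjusted p = 0.197) and Stat5b of -0.09 (unadjusted p = 0.42, edgeR).

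Ligands and receptors outside the 10 genes were mostly near 0 on the log2 scale. The 5 ligand genes tested had a median log2 fold change of 0.04, led by Cntf (0.25, unadjusted p = 0.363), Ebi3 (-0.17, unadjusted p = 0.618) and Ctf1 (-0.18, unadjusted p = 0.642, edgeR). The 5 receptor genes tested had a median of 0.11, led by Il31ra (0.67, unadjusted p = 0.255), Il27ra (-0.15, unadjusted p = 0.553) and Il11ra1 (0.17, unadjusted p = 0.635, edgeR). The receptor for IL-31 pairs with OSMR, but Il31ra was scarce, at 1.38 CPM or less in every tumor.

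To describe which genes had the profile most like that of a member, log2 CPM was scaled to mean 0 and SD 1 over the 8 tumors, and the root mean square difference in SD units was taken to every other tested gene. The scaling removes the size of a change, the 8 points share library and depth, and no test was made. For Il6 the 5 nearest genes were Ppp1r3b (0.079), Cxcr2 (0.123), Bsdc1 (0.18), Mtmr7 (0.18) and S100a8 (0.189). Cxcr2, the chemokine receptor of neutrophils, had 6.28, 7.52, 12.8 and 0.957 CPM in photoconverted tumors 1 to 4 and between 0.749 and 1.97 CPM in control tumors. Osmr was the nearest member to Il6, at rank 22 (0.278), while Osm stood at rank 160 and Socs3 at rank 630.

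The closest gene to Socs3 was Stat3 (0.147), followed by Dnaja4 (0.154), Bag3 (0.167), Stx6 (0.226) and Efr3b (0.235). Dnaja4 and Bag3 encode a co-chaperone each, and both are heat shock genes. Bag3 had 101.1, 99.4, 161.2 and 41.3 CPM in photoconverted tumors and 26.8, 53.2, 43.4 and 55.5 CPM in control tumors, so it shared with Socs3 a low value in control tumor 1 and in photoconverted tumor 4.

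For Lif the nearest genes were Gadd45g (0.216), Jun (0.257), Mir207 (0.283), Junb (0.283) and Dusp2 (0.287), and Jun, which encodes an AP-1 subunit, had 247.5, 211.0, 289.8 and 172.5 CPM in photoconverted and 112.1, 234.8, 129.3 and 169.1 CPM in control tumors. As with Lif, control tumors 2 and 4 were above control tumors 1 and 3. For Osm the nearest genes were Errfi1 (0.187), Ccrn4l (0.192), Perm1 (0.216), Cyr61 (0.249) and the neutrophil-attracting chemokine gene Cxcl2 (0.249). Lif stood at rank 3237 from Il6, Il6 stood at rank 753 from Lif at the same distance (0.875), and Osm stood at rank 109 from Lif (0.537).

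**Figure D5:**
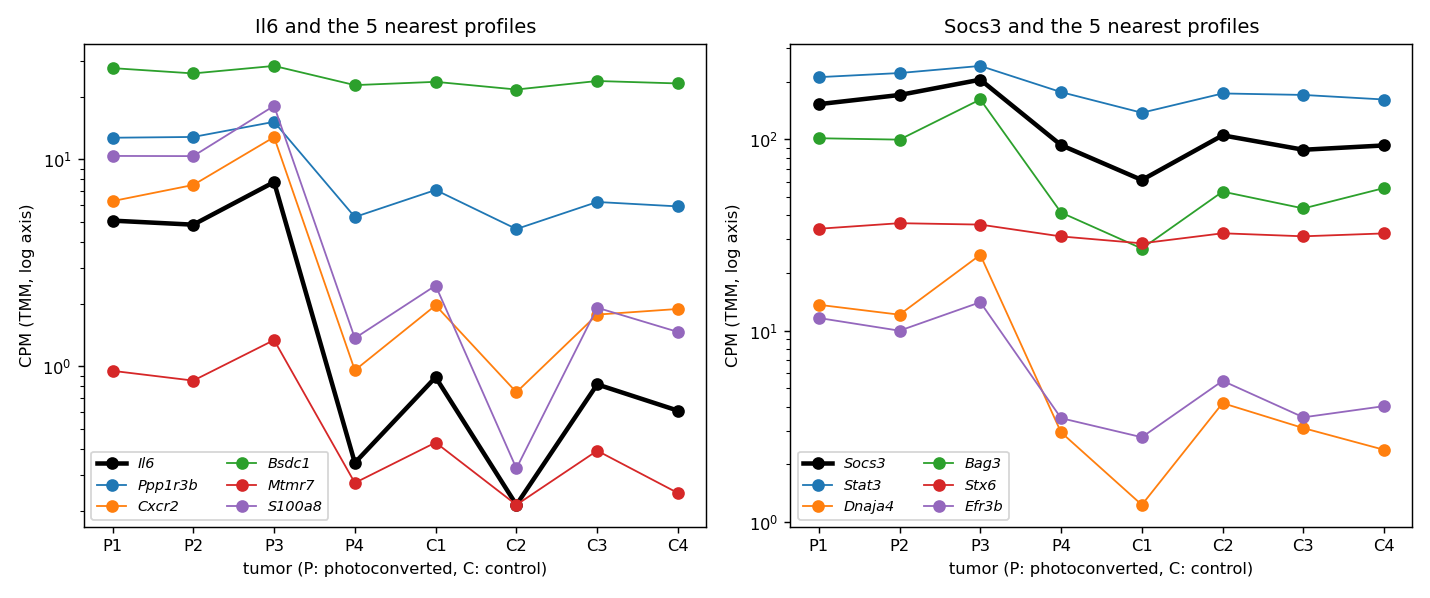
CPM on a log axis in each tumor (P, photoconverted, and C, control) for Il6 and Socs3 (thick lines) and the 5 tested genes with the nearest scaled profile to each (thin lines). Lines join the values of a gene and imply no order of tumors. Il6 and Cxcr2 are high in P1 to P3 and low in P4, and Socs3, Stat3 and Bag3 are lowest in C1.

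Markers of cell types that can make or receive these cytokines were summed in CPM. All 6 neutrophil markers had a positive log2 fold change, and their sum was 65.0, 77.4, 111.5 and 20.5 CPM in photoconverted tumors 1 to 4 against 18.3 to 29.8 CPM in control tumors. As for Il6 and Osm, photoconverted tumors 1 to 3 were above every control tumor and photoconverted tumor 4 was inside the control range. The order of the control tumors was not the same, with control tumor 1 highest for the sum and for Il6 and control tumor 4 highest for Osm. Cxcr2 and S100a8 belong to this marker list. Whether neutrophil number has a part in the Il6 or Osm values was not tested.

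All 5 mast cell markers also had a positive log2 fold change. Their sum was 22.1, 23.3, 29.2 and 10.5 CPM in photoconverted tumors 1 to 4 against 8.79 to 21.9 CPM in control tumors. Photoconverted tumors 1 to 3 were above every control, tumor 1 by very little. Kit was highest of all tumors in control tumor 3 (9.49 CPM) and Tpsb2 in control tumor 2 (3.64 CPM), whereas Cpa3, Mcpt4 and Cma1 were highest in photoconverted tumor 3. The macrophage, fibroblast and T cell lists and Ptprc did not separate those 3 tumors from the controls. The 6 macrophage and monocyte markers summed to 506.6 to 1064 CPM in photoconverted and 393.4 to 1082 CPM in control tumors, with 2 markers higher and 4 lower. The 6 fibroblast markers summed to 1721 to 2253 CPM and 1666 to 7453 CPM, with control tumor 2 highest, and 3 markers were higher and 3 lower. T cell markers, 5 of 6 listed in the table, summed to 9.02 to 20.3 CPM and 4.88 to 20.02 CPM. Ptprc, which marks all leukocytes, ranged over 71.0 to 153.1 CPM and 50.5 to 152.5 CPM.

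Markers of tissue around a tumor varied too. Skeletal muscle markers, all 5 with a positive log2 fold change, summed to 323.7, 529.9, 1031 and 120.8 CPM in photoconverted tumors and to 123.4 to 317.6 CPM in control tumors. Here again photoconverted tumors 1 to 3 were above every control tumor and photoconverted tumor 4 was not. Keratinocyte markers reached 15.7 CPM in photoconverted tumors 2 and 3 and at most 2.45 CPM in a control tumor, and adipocyte markers reached 11.8 and 4.27 CPM. Endothelial markers, all 4 with a positive log2 fold change, summed to 82.8 to 149.2 and 73.7 to 124.2 CPM. The part of these tissues and of mast cells in the levels of the 10 genes was not tested.

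Tumors carrying the same replicate number can be set side by side, on the log2 CPM scale, although the labels state no pairing. The share of all genes with each pair count was not computed, and the genes were chosen on this contrast, so nothing is read from the counts. The photoconverted tumor was higher in all 4 pairs for Il11, Il6st, Osmr, Stat3 and Socs3. Some of these differences were close to 0, such as 0.02 for Il11 in pair 4 and 0.04 for Il6st in pair 1. It was higher in 3 of 4 pairs for Il6 and Osm, in 2 for Lif and Clcf1 and in 1 for Il6ra. For Il6 the differences were 2.41, 4.06, 3.13 and -0.71 in pairs 1 to 4. Those of Socs3 were 1.32, 0.70, 1.22 and 0.01, and those of Osmr were 0.64, 1.42, 1.12 and 0.24. Both libraries of pair 4 had a high Rn45s share. There the difference was the smallest of the 4 pairs for Socs3, Osmr, Il11 and Stat3 (0.13 for Stat3). It was negative for Il6, Osm, Lif and Clcf1.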

How the data were processed

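Whole-tumor RNA was sequenced from 4 photoconverted and 4 control tumors. For each gene symbol the authors deposited raw counts and, in a further table, a normalized signal equal to the counts divided by size factors of 0.416 to 1.77. That table left out 4598 genes with at most 1 count in all. The submitters' processing notes name CASAVA, FastQC, Trim Galore, HISAT2, featureCounts, DESeq2 and build mm10. Tool versions and the strand setting are not given in the sources used here. The library kit is SMARTER stranded in the labels and TruSeq stranded in the methods of the study.

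Counts were fitted with edgeR 4.0.16 in R 4.3.3 (TMM, filterByExpr by group, glmQLFit, glmQLFTest, Benjamini-Hochberg over 14468 genes, threshold 0.05). log2 CPM used a prior count of 2. Figures were drawn with matplotlib 3.10.9. Exon lengths and positions came from GENCODE vM21 (GRCm38) and promoters from RefSeq. The 10 genes, the pathway and marker lists were chosen with earlier results of these data known. Genes named were the 10 members, the 3 pathway genes of each role with the smallest p, of which 1 is not reported here, and the 5 nearest profiles of Il6, Lif, Osm and Socs3. Cxcr2, Bag3 and Jun were picked from these for their values in each tumor after those values were seen, as were Lcn2, Junb, Cebpb and Cdx2 for mention.

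Replicate numbers come from the labels, which state no pairing. Across genes, deviations from group means correlated with r of 0.107 to 0.623 between tumors with the same number and of -0.60 to 0.482 between others, so a replicate block was fitted as an alternative. No same-group libraries agreed within sampling noise (smallest chi-square per degree of freedom 23.8). The labels do not state that the tumors were processed separately, so p-values cover the spread between these samples. On simulated counts of this comparison for 14468 genes, with 200 changed 4-fold, edgeR recovered 170 with 7 false calls and DESeq2 1.42.0 recovered 181 with 57. Total counts were 12576615 to 35844417 per tumor, of which few fell on Il6 (2 to 202) and Il11 (8 to 107). Precision also depends on the spread between tumors. The standard error of Il6 was 0.73 with all tumors and 0.38 without photoconverted tumor 4.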

Additional observations from a re-analysis of the deposited data

How the results depend on the processing

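Over 15 alternative fits (DESeq2, other size factors, no filter, replicate block, Rn45s left out or as a covariate, only low-share libraries, and each tumor left out), 9 of the 10 genes kept the direction of their log2 fold change in all 15, and Il6ra kept it in 14. Il6 lay between 2.35 and 3.09, Osm between 0.72 and 1.32, Socs3 between 0.68 and 1.24, Osmr between 0.69 and 1.09, Il11 between 0.76 and 1.30, Stat3 between 0.34 and 0.55, and Il6st between 0.07 and 0.48. In the low-share libraries Lif was 1.27 and Clcf1 0.56. These differed from the values of all tumors, 0.65 and 0.17, by more than the pooled within-group SD of log2 CPM (0.48 and 0.29). The cause was not tested. The count of these genes whose groups did not overlap, recomputed after the data were seen, was 1 to 5 with each tumor left out in turn, beside 0.961% to 3.83% of all genes, and 8 in the low-share libraries, beside 14.0%.

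Genes past the adjusted threshold numbered 0 in edgeR, 24 with DESeq2 (23 higher), 42 in the low-share libraries (37 higher) and 0 to 11 with a tumor left out, 11 without photoconverted tumor 4. The replicate block gave 0 such genes, with 869 at an unadjusted p under 0.05 against 322 without the block, and it changed no call of a pathway gene. Pathway genes past that threshold numbered 0 under every alternative, with a smallest adjusted p of 0.0879, in the low-share libraries. At an unadjusted p under 0.05, 0 pathway genes were left without photoconverted tumor 2 or 3, and 8 without tumor 4.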
